A study of Homo sapiens with 11 samples.

Results

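MHC class I molecules carry peptides made from a cell's own proteins to its surface, and 8 of the genes behind them were followed here in cells given a mimic of miR-365a-3p: HLA-B, HLA-C, HLA-E, B2M, TAP1, TAP2, TAPBP and CALR. They were chosen by symbol from the 31325 genes of the expression arrays, and all 8 had a row. The arrays were made from MDA-MB-231, a line from a human breast cancer, with miR-365a-3p (n = 3) or a control miRNA (n = 3), and from SKOV3, a line from a human ovarian cancer, with miR-365a-3p (n = 3) or a control miRNA (n = 2). The labels give 48 h of treatment for the mimic and control arrays, and the design text gives 24 h. The labels write SKOV3 where the methods write SKOV3.ip1, a derivative of that line. Each line stands for 1 tumor and both were cultured without immune cells.

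A class I molecule is a heavy chain, such as HLA-B, HLA-C or the less variable HLA-E, bound to the light chain beta-2-microglobulin, the product of B2M. The proteasome and cytosolic peptidases cut proteins into peptides, and the transporter made of TAP1 and TAP2 moves these into the endoplasmic reticulum. There tapasin, the product of TAPBP, holds the empty class I molecule at the transporter, and calreticulin, the product of CALR, is a chaperone of the same loading complex. Interferons are known to raise many of these genes, and tumor cells often carry less class I on their surface than normal cells do. The arrays measured mRNA only, so neither protein nor surface class I was followed. They average over all cells of a culture, so that a change in some cells and a smaller change in every cell cannot be told apart.

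The mimic had the sequence of mature miR-365a-3p, shown because a miRNA selects mRNAs mainly through its seed, bases 2 to 8, here in capitals. RefSeq places it at chr16:14309340-14309361 of GRCh38.p14 on the plus strand. The same table gives this seed to miR-365b-3p and to no other human miRNA.
miR-365a-3p: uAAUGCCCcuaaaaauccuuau

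Promoter windows, running from 250 bases before to 50 bases after a gene start, were at hand in the RefSeq table of GRCh38.p14 for 7 of the 8 genes, all but HLA-E. The interferon-stimulated response element, spelled as GAAA, any 2 bases and GAAA again, was searched on both strands. It occurred in 3.57% of all 35116 windows and in 4 of the 7 genes, TAP1, B2M, TAP2 and TAPBP. The 150 bases before the start of these 4 are shown in the direction of transcription because the genes that rose and those that fell are both among them. Capitals mark the match, which in TAP1 lies on the opposite strand and therefore reads TTTC, 2 bases and TTTC. In TAP1, B2M and TAPBP the capitals join 2 overlapping matches.
TAP1, chr6:32853705-32853854, minus strand: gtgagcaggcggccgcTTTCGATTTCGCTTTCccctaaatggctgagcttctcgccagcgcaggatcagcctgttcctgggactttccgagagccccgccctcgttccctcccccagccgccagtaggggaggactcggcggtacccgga
B2M, chr15:44711367-44711516, plus strand: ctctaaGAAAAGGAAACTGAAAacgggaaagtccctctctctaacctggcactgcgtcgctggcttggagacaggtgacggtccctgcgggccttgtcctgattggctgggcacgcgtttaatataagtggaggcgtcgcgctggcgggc
TAP2, chr6:32838740-32838889, minus strand: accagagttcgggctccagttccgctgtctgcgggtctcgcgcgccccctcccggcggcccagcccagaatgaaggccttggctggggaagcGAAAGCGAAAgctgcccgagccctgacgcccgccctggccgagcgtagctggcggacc
TAPBP, chr6:33314079-33314228, minus strand: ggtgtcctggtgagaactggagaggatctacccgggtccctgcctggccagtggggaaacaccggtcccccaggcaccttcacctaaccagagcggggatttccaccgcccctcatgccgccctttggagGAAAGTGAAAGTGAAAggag
TAP1 has 2 windows in the table, and the other one holds no match. The NF-kB motif, spelled as GGG, any 5 bases and CC, was in the windows of 7 of the 7 genes and in 58.7% of all windows. CCAAT was in 5 of the 7 and in 34.6% of all. The cyclic AMP response element TGACGTCA was in 0 of the 7 and in 1.85% of all. A match describes letters only, and binding was not measured.

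All values are log2 signals after quantile normalization of the 11 arrays, and differences are miR-365a-3p minus control on that scale. A gene is said to have risen or fallen where limma's adjusted p, corrected over all 31325 genes, was under 0.05. Before this normalization, the medians of the arrays lay between 7.35 and 7.41 and their highest values between 13.45 and 14.53, so values near 7.3 are at the floor of the scale. The deposited 75th percentile was 7.56 to 7.65 with miR-365a-3p and 7.86 to 7.93 with control in MDA-MB-231 cells, and 7.67 to 7.80 against 7.98 to 8.04 in SKOV3 cells. The 99th percentile went the other way. It was 12.51 to 12.64 with miR-365a-3p and 12.28 to 12.32 with control in MDA-MB-231 cells, and 12.41 to 12.49 against 12.21 to 12.31 in SKOV3 cells. The distribution of array signal thus differed with the treatment, lower at the 75th and higher at the 99th percentile. The part of this in the results below was not tested beyond the other normalizations named there. Of the line markers, ERBB2 separated the lines, at 7.61 in control MDA-MB-231 and 10.86 in control SKOV3 cells. ESR1 (-1.55, adjusted p = 0.00086) and CDH1 (-0.15, adjusted p = 0.0045) were also lower in control MDA-MB-231 cells. CDH1 was near the floor, with a mean of 7.33 over the arrays. VIM, a mesenchymal marker, was at 13.79 and 13.70 and did not differ by the test (adjusted p = 0.931). KRT18, an epithelial keratin, did not differ either (adjusted p = 0.729). ERBB2 itself fell with miR-365a-3p in SKOV3 cells (-1.57, adjusted p = 0.0084). None of the 6 immune cell markers passed limma's test in either line (1 and 0 at an unadjusted p under 0.05), and PTPRC, the pan-leukocyte antigen CD45, stayed between 7.28 and 7.30 in the 4 group means.

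In MDA-MB-231 cells, 3 of the 8 genes rose, 2 fell and 3 did not pass the test. The mRNAs of HLA-E, B2M and TAP1 rose, and those of TAP2 and TAPBP fell. Of all genes tested in these cells, 14.4% rose and 11.7% fell. Among the 6853 genes with a mean above 8, to which 5 of the 8 belong, 39% rose and 26.2% fell. In SKOV3 cells, 1 of the 8 rose (TAP1), 1 fell (TAPBP) and 6 did not pass, where 7.25% of all genes rose and 7.11% fell, or 23.4% and 15.3% of those with a mean above 8. TAP1 rose and TAPBP fell in both lines. Of all genes, 5.76% rose in both lines and 5.39% fell in both, and of those with a mean above 8 it was 21% and 13.4%. The median difference of the 8 genes was 0.25 in MDA-MB-231 and 0.07 in SKOV3 cells, against 0.17 and 0.15 for all genes with a mean above 8. Of the 5 among the 8 with a mean above 8, 3 rose and 0 fell in MDA-MB-231 cells, and SKOV3 cells had 1 rise and 0 falls. With so few genes, nothing is read from these shares.

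**Figure D1:**
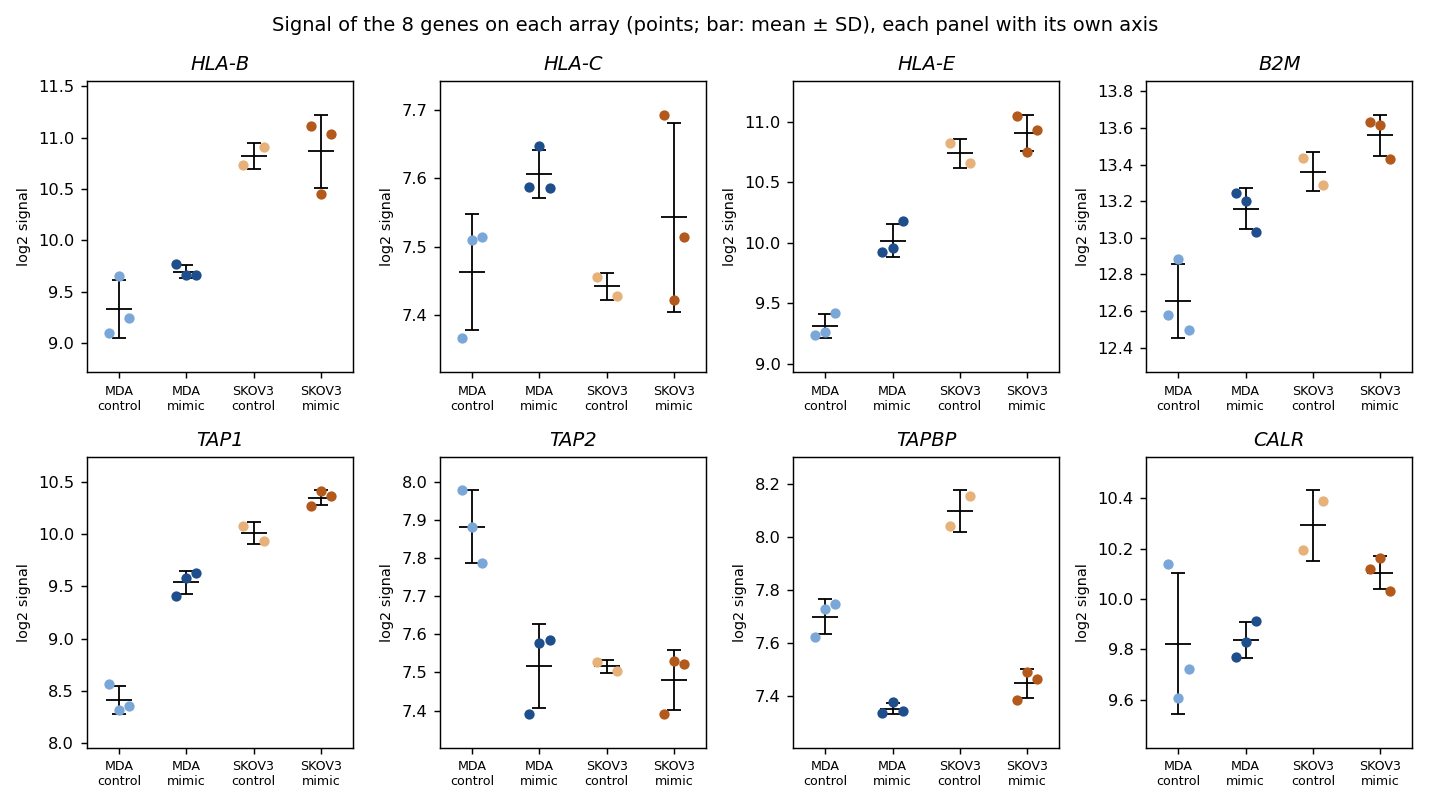
Log2 signal (vertical axis, a separate range for each panel) of the 8 genes on each of the 11 arrays in the 4 groups. Points are arrays and bars are the group mean ± SD. TAP1 was higher and TAPBP lower on every mimic array than on every control array of the same line, and TAPBP with the mimic reached the floor of the scale near 7.3 to 7.5.

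TAP1, one of the chains of the peptide transporter, rose in both lines. Its signal was 8.57, 8.32 and 8.36 on the control arrays of MDA-MB-231 cells and 9.41, 9.58 and 9.63 on the miR-365a-3p arrays. The groups lay far apart, with a difference of 1.12 (SE 0.08, adjusted p = 3.77e-05), which is 2.18-fold. In SKOV3 cells, TAP1 gave 10.08 and 9.93 with control and 10.27, 10.41 and 10.37 with miR-365a-3p. These groups did not overlap either, but the rise was 0.34 (SE 0.09, adjusted p = 0.039), or 1.27-fold. Over both lines, the exact permutation test of the treatment within lines gave a two-sided p of 0.005, the smallest that its 200 arrangements allow. The SKOV3 call was fragile. It was lost under 13 of 21 alternatives, with differences of 0.27 to 0.42, among them the deposited values (adjusted p = 0.142). The same 13 included the fits without SKOV3 control replicate 1 (difference 0.42) or replicate 2 (difference 0.27). They also included those without SKOV3 miR-365a-3p replicate 2 (adjusted p = 0.0895) or replicate 3 (adjusted p = 0.0905). Further ones were the fits without MDA-MB-231 miR-365a-3p replicate 2 (adjusted p = 0.0623) or control replicate 3 (adjusted p = 0.0555). These MDA-MB-231 arrays are not part of the SKOV3 difference, but they enter the normalization and the shared estimate of the spread.

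TAP2, which pairs with TAP1 to form the transporter, went the other way in MDA-MB-231 cells. Its control arrays gave 7.98, 7.88 and 7.79, and its miR-365a-3p arrays 7.39, 7.58 and 7.58. The groups did not overlap, and TAP2 fell by 0.36 (SE 0.07, adjusted p = 0.0037). In the deposited values without further normalization, the difference was -0.55 with an adjusted p of 0.000152. In SKOV3 cells, TAP2 was already near the floor, at 7.53 and 7.50 with control and 7.39, 7.53 and 7.52 with miR-365a-3p. No difference was detectable there (-0.03, 95% interval -0.21 to 0.14). With the mimic TAP2 was near the floor in both lines, where signal could hardly fall further.

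TAPBP, the gene of tapasin, fell in both lines. In MDA-MB-231 cells its signal was 7.62, 7.73 and 7.75 with control and 7.34, 7.38 and 7.34 with miR-365a-3p. In SKOV3 cells it was 8.04 and 8.15 with control and 7.39, 7.49 and 7.47 with miR-365a-3p. In both lines the miR-365a-3p arrays lay below all controls and close to the floor. The differences were -0.35 (SE 0.04, adjusted p = 0.0006) and -0.65 (SE 0.05, adjusted p = 8.77e-05), and the exact permutation p over both lines was 0.005. The MDA-MB-231 difference was -0.23 under cyclic loess normalization (adjusted p = 0.0052). The fall in SKOV3 cells kept its call under all 21 alternatives run.

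B2M, the light chain shared by all classical class I molecules, gave 12.58, 12.88 and 12.50 in control MDA-MB-231 cells and 13.24, 13.20 and 13.03 with miR-365a-3p. The groups did not overlap, and B2M rose by 0.51 (SE 0.11, adjusted p = 0.0075), or 1.42-fold. In SKOV3 cells the values were 13.44 and 13.29 with control and 13.64, 13.62 and 13.43 with miR-365a-3p. These groups overlapped, and the difference of 0.20 (95% interval -0.07 to 0.47) did not pass the test (adjusted p = 0.396). The signals of B2M lay near the top of the scale, and its difference moved with the normalization. The rise in MDA-MB-231 cells was 0.85 in the deposited values and 0.88 with arrays centred on their medians. With that centring B2M also passed in SKOV3 cells, at 0.43 (adjusted p = 0.0407). Cyclic loess gave smaller differences, 0.40 in MDA-MB-231 cells (adjusted p = 0.0073) and 0.02 in SKOV3 cells (adjusted p = 0.936).

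Among the heavy chains, HLA-E rose in MDA-MB-231 cells. HLA-E presents peptides cut from the leader sequences of other class I chains and is read by receptors of natural killer cells. Its control arrays gave 9.24, 9.27 and 9.42 and its miR-365a-3p arrays 9.93, 9.95 and 10.18, with no overlap. The rise was 0.71 (SE 0.10, adjusted p = 0.0008), or 1.64-fold, and it kept its call under all 21 alternatives run. In SKOV3 cells, HLA-E gave 10.83 and 10.66 with control and 11.05, 10.75 and 10.93 with miR-365a-3p. The groups overlapped, and the difference was 0.17 (95% interval -0.08 to 0.41, adjusted p = 0.432).

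HLA-B and HLA-C, classical heavy chains that present peptides to T cells, did not pass the test in either line. HLA-B gave 9.10, 9.65 and 9.25 with control and 9.77, 9.66 and 9.66 with miR-365a-3p in MDA-MB-231 cells. The miR-365a-3p arrays were barely above the highest control array, and the difference was 0.37 (95% interval -0.06 to 0.79, adjusted p = 0.218). In SKOV3 cells HLA-B gave 10.73 and 10.91 with control and 11.11, 10.46 and 11.03 with miR-365a-3p, so that the treated arrays lay on both sides of the controls (difference 0.05, 95% interval -0.43 to 0.52). HLA-C was close to the floor on all 11 arrays, between 7.37 and 7.69. Its differences were 0.14 (95% interval -0.01 to 0.30) in MDA-MB-231 cells and 0.10 (95% interval -0.07 to 0.27) in the other line, and both were slightly below 0 in the deposited values (-0.014 and -0.011). HLA genes differ between people and share long stretches of sequence, so an HLA-C probe at the floor does not show that HLA-C was absent, and an HLA-B or HLA-E signal may hold that of related chains.

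CALR, the chaperone calreticulin, did not pass in either line. In MDA-MB-231 cells it gave 10.14, 9.61 and 9.72 with control and 9.77, 9.83 and 9.91 with miR-365a-3p, which lay within the control range. The difference was 0.02 (95% interval -0.27 to 0.30) and turned to -0.043 under cyclic loess, to -0.11 with centred arrays and to -0.14 in the deposited values. In SKOV3 cells CALR gave 10.19 and 10.39 with control and 10.12, 10.16 and 10.03 with miR-365a-3p. The treated arrays were all lower, but the difference of -0.19 (95% interval -0.50 to 0.13) had an adjusted p of 0.528.

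Counted by overlap alone, the miR-365a-3p arrays of MDA-MB-231 cells lay above all controls for 5 of the 8 genes and below all controls for 2, with CALR the exception. Of all genes, 21% lay above and 17% below in this way. In SKOV3 cells, with 1 array fewer, 1 gene lay above (TAP1) and 2 lay below (TAPBP and CALR), where 23.7% of all genes lay above and 18.2% below.

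**Figure D2:**
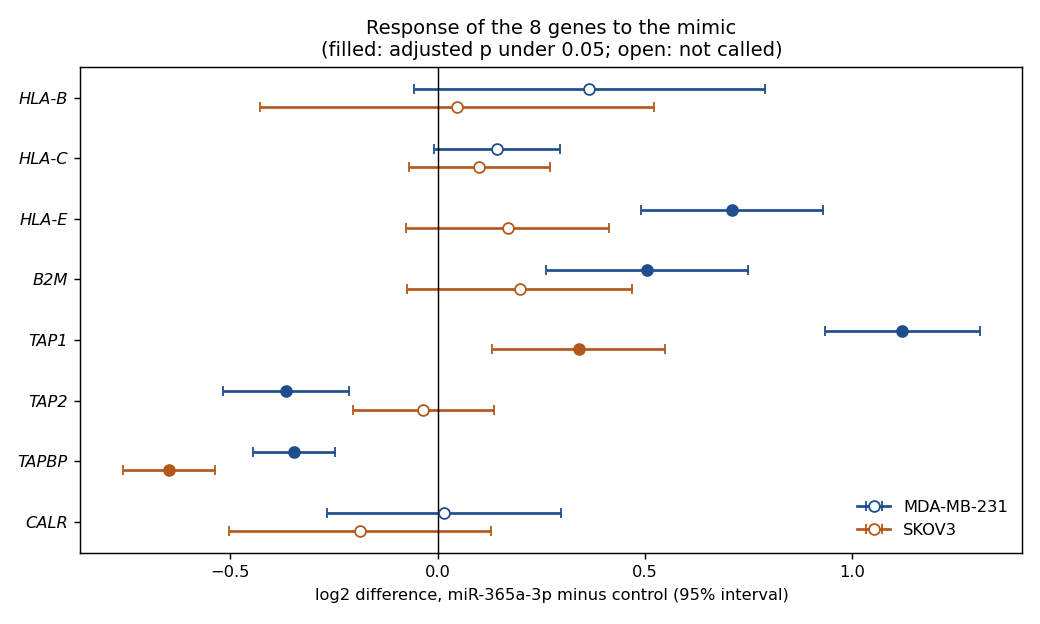
Difference between miR-365a-3p and control (horizontal axis, log2, with the 95% interval of the fit, not adjusted for the number of genes) for each of the 8 genes in MDA-MB-231 (blue) and SKOV3 (orange) cells. Filled points had an adjusted p under 0.05. TAP1 stands at 1.12 in MDA-MB-231 and 0.34 in SKOV3 cells, and TAPBP at -0.35 and -0.65.

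Whether the lines responded differently was tested directly, as the response in MDA-MB-231 cells minus that in SKOV3 cells. Of all genes, 2.54% passed this test, and of the 8 genes it was TAP1 alone, whose rise was greater by 0.78 in MDA-MB-231 cells (SE 0.12, adjusted p = 0.0138). The TAP1 call was lost under 5 of 20 alternatives, among them the deposited values (0.55, adjusted p = 0.116), centred arrays (0.54, adjusted p = 0.11) and the fit without SKOV3 control replicate 1 (0.72, adjusted p = 0.0832). For HLA-E the difference was 0.54 (95% interval 0.21 to 0.87, adjusted p = 0.116), although its rise passed in MDA-MB-231 cells alone, and it passed with array weights (0.51, adjusted p = 0.0454). For TAP2 it was -0.33 (adjusted p = 0.17) and for TAPBP 0.30 (adjusted p = 0.0534). Both of these passed in the deposited values, at -0.39 (adjusted p = 0.045) and 0.45 (adjusted p = 0.017), and also with cyclic loess and with centred arrays. The other four, HLA-B, HLA-C, B2M and CALR, had adjusted p-values of 0.49 to 0.93 for this difference.

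The lines also differed before treatment. Among control arrays, 16.1% of all genes differed between MDA-MB-231 and SKOV3 cells in either direction, and of the 8 genes 5 were higher in SKOV3 and 1 in MDA-MB-231 cells. HLA-B was lower in MDA-MB-231 cells (-1.49, adjusted p = 0.0012), and so were HLA-E (-1.43, adjusted p = 3.68e-05) and TAP1 (-1.59, adjusted p = 8.03e-06). B2M and TAPBP were lower by smaller amounts (-0.71 and -0.40, adjusted p = 0.0034 and 0.0006). TAP2 was the gene that was higher in MDA-MB-231 cells, by 0.37 (adjusted p = 0.0094). That call was lost without SKOV3 control replicate 1 (adjusted p = 0.0575) or replicate 2 (adjusted p = 0.074). CALR (-0.47, adjusted p = 0.0526) and HLA-C (0.02, adjusted p = 0.939) did not pass. CALR passed under 6 of 20 alternatives, among them the fit without MDA-MB-231 control replicate 1, at -0.63 (adjusted p = 0.0014).

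The order of the 4 groups was the same for HLA-B, HLA-E, B2M and TAP1. Their means increased from control MDA-MB-231 to miR-365a-3p MDA-MB-231 to control SKOV3 to miR-365a-3p SKOV3 cells. For TAP1 they were 8.42 ± 0.14 (SD, n = 3), 9.54 ± 0.11 (SD, n = 3), 10.01 ± 0.10 (SD, n = 2) and 10.35 ± 0.07 (SD, n = 3), and no neighbours in this order overlapped. For HLA-E they were 9.31 ± 0.10, 10.02 ± 0.14, 10.74 ± 0.12 and 10.91 ± 0.15, and the SKOV3 groups overlapped. After the mimic, MDA-MB-231 cells were thus still below control SKOV3 cells for both genes on every array. TAPBP had another order, with control SKOV3 cells highest at 8.10 ± 0.08 (SD, n = 2), then control MDA-MB-231 cells at 7.70 ± 0.07 (SD, n = 3), and both treated groups lower, at 7.45 ± 0.05 and 7.35 ± 0.02 (SD, n = 3 each).

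TAP1 and TAP2 lie in the class II region of the MHC on chromosome 6, in the order HLA-DOB, TAP2, PSMB8, TAP1, PSMB9, HLA-DMB and HLA-DMA. PSMB8 and PSMB9 encode subunits of the immunoproteasome, and HLA-DMA and HLA-DMB the chains of the peptide editor of class II. PSMB8 gave 8.13, 8.38 and 8.12 in control MDA-MB-231 cells and 9.06, 8.91 and 8.80 with miR-365a-3p, a rise of 0.71 (adjusted p = 0.0094). PSMB9 gave 7.50, 7.61 and 7.51 against 8.16, 8.01 and 7.92, a rise of 0.49 (adjusted p = 0.0274). HLA-DMB rose by 1.01 (adjusted p = 0.0039) and HLA-DMA by 0.40 (adjusted p = 0.0088) in the same cells. TAP2 was therefore the only one of these 7 neighbours that fell in MDA-MB-231 cells, and HLA-DOB, at 0.06, did not pass (adjusted p = 0.228). HLA-DOB had a mean of 7.35 over the arrays, near the floor, where a fall could hardly be measured. In SKOV3 cells TAP1 alone of the 7 passed. HLA-DMB was at 0.61 (adjusted p = 0.0916), PSMB9 at 0.39 (adjusted p = 0.147) and PSMB8 at 0.25 (adjusted p = 0.507). These neighbours were singled out after their values were seen.

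**Figure D3:**
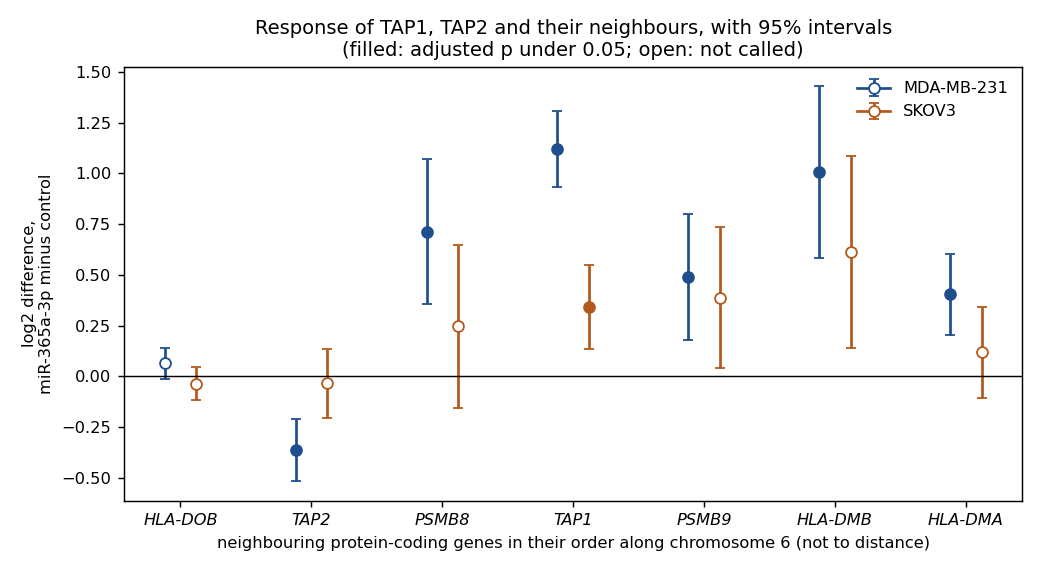
Difference between miR-365a-3p and control (vertical axis, log2, with the 95% interval of the fit) for TAP1, TAP2 and their protein-coding neighbours in chromosomal order, not drawn to distance. Filled points had an adjusted p under 0.05. In MDA-MB-231 cells TAP2 lies at -0.36 among 5 genes that rose by 0.40 to 1.12, with HLA-DOB, whose signal was near the floor, at 0.06.

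The rest of the pathway was followed through 69 other genes in 8 lists. Of these, 15 rose, 19 fell and 35 did not pass in MDA-MB-231 cells. SKOV3 cells had 5 rises, 12 falls and 52 genes that did not pass. In both lines 4 rose and 12 fell. Over all genes, 14.4% rose and 11.7% fell in MDA-MB-231 cells, 7.25% and 7.11% did in SKOV3 cells, and 5.76% and 5.39% in both. Of the 69 genes, 41 had a mean above 8. Of these 41, 11 rose and 13 fell in MDA-MB-231 cells (39% and 26.2% of all such genes), with SKOV3 at 5 and 9 (23.4% and 15.3%) and both lines at 4 and 9 (21% and 13.4%). Each list below is to be read beside these shares, and none was tested as a list.

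Of the 5 genes of the immunoproteasome and its activator, 4 rose and 1 fell in MDA-MB-231 cells, while SKOV3 cells had 2 rises and 1 fall. All 5 had a mean above 8, where 39% of genes rose and 26.2% fell in MDA-MB-231 cells, and 23.4% and 15.3% in SKOV3 cells. PSMB10, the catalytic subunit that joins PSMB8 and PSMB9 in the immunoproteasome, rose by 0.87 (adjusted p = 0.0001) and 0.40 (adjusted p = 0.0211). PSME2, one chain of the PA28 activator, rose by 0.58 (adjusted p = 0.0041) and 0.46 (adjusted p = 0.0367), whereas its partner chain PSME1 fell (-0.70 and -0.99, adjusted p = 0.0037 and 0.0024). In MDA-MB-231 cells, the chains of the activator thus moved in opposite directions, as did those of the transporter. The SKOV3 call of PSME2 was lost under 14 of 21 alternatives, 6 of them a single array left out (adjusted p = 0.0532 to 0.238), and that of PSMB10 under 7, of which 3 left out 1 array (adjusted p = 0.0621 to 0.171). PSME1 kept both calls under all 21. A further list of 4 genes held the constitutive subunits PSMB5, PSMB6 and PSMB7, and PSME3, a nuclear proteasome activator. All 4 had an unadjusted limma p under 0.05 in MDA-MB-231 cells, 2 higher and 2 lower. In SKOV3 cells it was 2, 1 higher and 1 lower. By the adjusted p, 1 fell in each line and none rose. This was PSME3 (-1.21 and -0.58, adjusted p = 0.0003 and 0.0348), and none of the constitutive subunits passed in either line. The SKOV3 call of PSME3 was lost under 7 of 21 alternatives, 5 of them a single array left out.

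Other class I chains and class I-like genes gave 2 rises and 1 fall among 10 genes in MDA-MB-231 cells, and none passed limma's test in SKOV3 cells (1 at an unadjusted p under 0.05). HLA-G, a heavy chain best known from the placenta, rose by 0.64 (adjusted p = 0.0141), and MR1, which presents vitamin B metabolites, rose by 0.54 (adjusted p = 0.001). MICB, a stress ligand of the NKG2D receptor, fell by 1.04 (adjusted p = 0.0001) in MDA-MB-231 cells and stood near the floor in SKOV3 cells, where the difference was 0.06 and turned to -0.09 with centred arrays and -0.13 in the deposited values. The response of MICB differed between the lines (-1.09, adjusted p = 0.0066). HLA-G and MR1 are named after their values were seen.

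Folding and trimming genes of the endoplasmic reticulum gave 1 rise and 4 falls among 10 genes in MDA-MB-231 cells and 2 falls in SKOV3 cells. PRKCSH, the beta subunit of the glucosidase that trims glycans for calreticulin binding, fell (-1.31 and -1.51, adjusted p = 0.0005 and 0.001). UGGT1, the glucosyltransferase that tags unfolded glycoproteins for another round of folding, fell (-0.28 and -0.13, adjusted p = 0.0002 and 0.023). The signal of UGGT1 was near the floor, with a mean of 7.41 over the arrays. Its SKOV3 call was lost under 5 of 21 alternatives, among them the fits without SKOV3 control replicate 1 (-0.14) or replicate 2 (-0.10). Of the 5 cytosolic peptidases, 3 fell in MDA-MB-231 cells, and SKOV3 cells had 2 falls and 1 rise. BLMH, bleomycin hydrolase, fell (-0.98 and -0.97, adjusted p = 0.0018 and 0.0066), the SKOV3 call being lost without SKOV3 control replicate 2 (-0.86, adjusted p = 0.0758). NPEPPS, the puromycin-sensitive aminopeptidase, fell (-0.23 and -0.31, adjusted p = 0.0415 and 0.0331), and its calls were lost under 14 and 8 of 21 alternatives, of which 8 and 5 left out 1 array (adjusted p up to 0.128 and 0.197).

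Of 13 transcription factors that act on class I promoters, 2 rose and 5 fell in MDA-MB-231 cells, SKOV3 cells had 1 rise and 5 falls, and 5 fell in both. Of the 7 with a mean above 8, 1 rose and 4 fell in each line. Of all such genes, 39% rose and 26.2% fell in MDA-MB-231 cells, and 23.4% and 15.3% in SKOV3 cells. NFKB1, the p50 subunit of NF-kB, fell (-1.82 and -1.30, adjusted p = 0.0002 and 0.0045), and so did RELA, the p65 subunit (-0.33 in both, adjusted p = 0.0049 and 0.0162). CREB1, which binds the cyclic AMP response element, fell (-1.08 and -1.41, adjusted p = 0.0012 for both), while the related ATF1 rose by 0.54 (adjusted p = 0.0175) and 0.55 (adjusted p = 0.0427). NFYC, a subunit of the factor that binds CCAAT, fell (-0.90 and -0.62, adjusted p = 0.0002 and 0.0042). IRF1, a factor that binds interferon-stimulated response elements, fell (-0.50 and -0.48, adjusted p = 0.0017 and 0.0073), with larger values in the deposited data (-0.84 and -0.76). NLRC5, the class I transactivator, did not pass in either line (adjusted p = 0.587 and 0.796). Its mean over the arrays was 7.41, near the floor, where a fall could hardly be measured. The SKOV3 calls of NFKB1, NFYC, RELA and IRF1 were lost under 2, 1, 5 and 2 of 21 alternatives. Without SKOV3 control replicate 2, NFYC (adjusted p = 0.0554), IRF1 (adjusted p = 0.0729) and RELA (adjusted p = 0.0752) did not pass, and RELA also did not without replicate 1 (adjusted p = 0.135). In the deposited values ATF1 passed in neither line (0.28 and 0.39), and its calls were lost when any of 3 arrays (MDA-MB-231) or 7 arrays (SKOV3) was left out.

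Interferon receptor and signaling genes gave 1 rise and 3 falls among 10 in MDA-MB-231 cells and 1 rise and 1 fall in SKOV3 cells. IRF9, the DNA-binding subunit of the complex that interferon alpha and beta activate, rose. It gave 8.26, 8.21 and 8.29 with control and 9.61, 9.56 and 9.40 with miR-365a-3p in MDA-MB-231 cells, a rise of 1.27 (adjusted p = 3.96e-05). In SKOV3 cells it gave 8.21 and 8.22 against 9.02, 8.72 and 8.63, a rise of 0.57 (adjusted p = 0.0072), and the rise was greater in MDA-MB-231 cells by 0.70 (adjusted p = 0.0409). This difference did not pass under 12 of 20 alternatives, 9 of them a single array left out (adjusted p = 0.0712 to 0.178). The SKOV3 call was lost without SKOV3 control replicate 1 (adjusted p = 0.0574) or replicate 2 (adjusted p = 0.0622), and the rise was 0.31 in the deposited values. TYK2, a kinase of the interferon receptors, fell (-1.44 and -0.95, adjusted p = 0.0018 and 0.0382), and its SKOV3 call was lost when any of 6 arrays was left out (adjusted p = 0.0566 to 0.216), with differences of -1.05 to -0.72.

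Class II genes, whose products present peptides from outside the cell, gave 5 rises and 1 fall among 12 in MDA-MB-231 cells, and none passed limma's test in SKOV3 cells (1 at an unadjusted p under 0.05). The fall was that of CD74, the invariant chain of class II molecules. Its mean went from 9.08 ± 0.26 (SD, n = 3) to 7.62 ± 0.06 (SD, n = 3), a difference of -1.47 (adjusted p = 3.69e-05), while in SKOV3 cells it lay at the floor with and without the mimic (7.28 and 7.31). The responses of CD74 differed between the lines (-1.50, adjusted p = 0.0022).

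**Figure D4:**
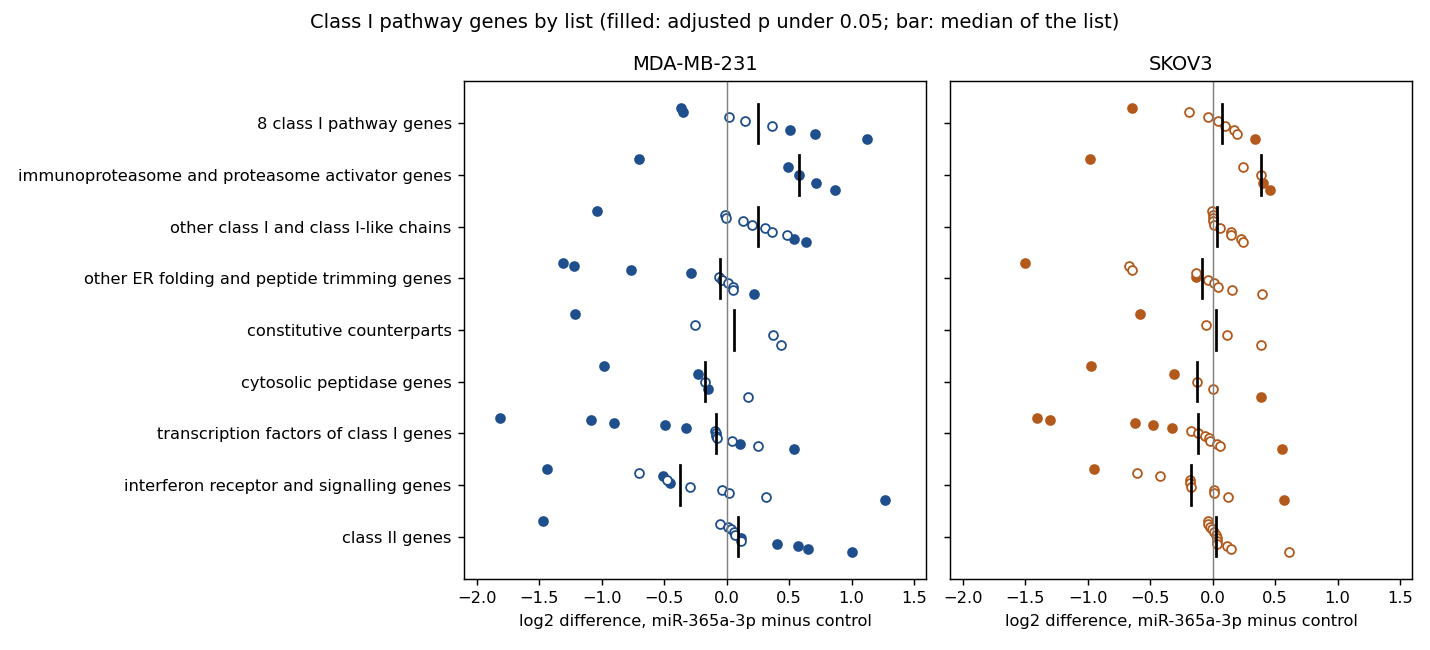
Difference between miR-365a-3p and control (horizontal axis, log2) for the 8 genes and the 69 other genes of the pathway, by list, in MDA-MB-231 (left) and SKOV3 (right) cells. Each point is a gene, filled where the adjusted p was under 0.05, and the bar is the median of the list. In MDA-MB-231 cells the median of the immunoproteasome and activator list lies at 0.58, and the lists of folding and trimming genes, peptidases, transcription factors and interferon signaling genes have medians below 0.

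Among all genes, the balance of rises and falls moved with the normalization, but it did not among the 8 genes in MDA-MB-231 cells. Of all genes that passed in MDA-MB-231 cells, 55.2% rose after quantile normalization, 54.6% after cyclic loess, 40.9% with centred arrays and 28.8% in the deposited values, and in SKOV3 cells it was 50.5%, 49.7%, 32.3% and 21.4%. Of the 8 genes in MDA-MB-231 cells, 3 rose and 2 fell under each of these. For SKOV3 it was 1 rise and 1 fall, except in the deposited values, where none rose and TAPBP fell. With centred arrays, the SKOV3 rise was that of B2M in place of TAP1.

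Finally, each of the 8 genes was set beside the genes with a mean above 8 whose profile over the 11 arrays, centred on its own mean, was nearest by root mean square difference. Nearest to HLA-B were HLA-H, an HLA pseudogene, at 0.11, PPIC, a cyclophilin, at 0.15 and HLA-F at 0.15, beside a spread of HLA-B about its own mean of 0.71. HLA-H and HLA-F share sequence with HLA-B, so a common signal on the array cannot be told apart from similar mRNA levels. For TAP1, whose own spread was 0.76, the nearest were LOC729340 at 0.16, CTSL2 at 0.17 and LOC730255 at 0.17. For HLA-E they were YARS2, PRDX4 and CHMP2B at 0.13 to 0.14, for B2M TMSL3, PHF11 and LOC730324 at 0.07 to 0.09, for TAP2 C4orf46, TBC1D14 and CTR9 at 0.07 to 0.08, and for TAPBP DPF2, RBBP4 and CASC3 at 0.09 to 0.10. For CALR they were CCDC45, LOC645381 and UBAC2 at 0.12 to 0.13, and for HLA-C ZNF408, CSNK2A1P and NR1H2 at 0.05 to 0.06. The profiles of TAP2 and TAPBP are shallow (0.18 and 0.27), as are those of CALR (0.23) and HLA-C (0.10), and their likeness to other genes is correspondingly weak. The 11 arrays share 4 groups, so these are descriptions of likeness over groups more than over independent samples.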

How the data were processed

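Total RNA from transfected MDA-MB-231 and SKOV3 cells was copied into biotin-carrying cRNA and read on Illumina BeadChips. The authors applied lumi's quantile normalization (version not given in the sources used here), and for every array each gene symbol has 1 deposited log2 value. The transformation, the background correction and the way probes were combined into genes are not given in the sources used here. The deposited columns did not share a distribution (largest gap between sorted columns 1.09), so the values were quantile normalized again over all 11 arrays (limma 3.58.1, R 4.3.3). Group means for the 4 groups were fitted with lmFit, moderated with eBayes and adjusted by Benjamini-Hochberg over 31325 genes, with a threshold of 0.05. All groups share 1 estimate of the spread, with 7 residual degrees of freedom. Single values over both lines were tested by exact permutation of the treatment within lines (200 arrangements, two-sided). Within MDA-MB-231 cells alone, an exact p cannot go below 0.1. The labels do not say that replicates are separate cultures, so p-values measure the spread between arrays, which may be technical. The number of arrays limits the precision. The fit was also run on simulated data, which lacked the difference in array distribution between treatments. That run therefore does not bear on the effect of this difference.

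The 8 genes and the pathway lists were chosen with earlier results of these data known. Named are the 8 genes, pathway genes that passed in both lines with the same sign or whose responses differed between lines, marker genes, and for each of the 8 the 3 genes nearest in profile. Other genes are named after their values were seen. UGGT1 was matched through its older symbol. Motifs were searched in RefSeq windows. Alternatives were a fit of each line alone, a replicate block, a filter on dim genes, cyclic loess, centring on array medians, the deposited values, array weights, robust hyperparameters with an intensity trend, each array left out, an adjusted p under 0.01 and a difference of at least 0.5. A description by protein length was not run, since no protein sequences were used here, and 3' target sites of the miRNA were not analysed here. A few listed pathway genes are in the counts and are not reported here by name.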

Additional observations from a re-analysis of the deposited data

Results flagged for a closer look

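Among the 8 genes and the 69 other pathway genes, 4 had responses to miR-365a-3p that differed between the lines by the test of the difference itself (limma, adjusted over all genes), which 2.54% of all genes passed. For TAP1 the response in MDA-MB-231 cells minus that in SKOV3 cells was 0.78 (adjusted p = 0.0138). For IRF9 it was 0.70 (adjusted p = 0.0409), a call lost under 12 of 20 alternatives. For MICB it was -1.09 (adjusted p = 0.0066) and for CD74 -1.50 (adjusted p = 0.0022), and both of these were near the floor of the scale in control SKOV3 cells (7.58 and 7.28), where a fall could hardly be measured. No group has more than 3 arrays, so single arrays were not tested as outliers.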

How the results depend on the processing

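The rises of HLA-E, B2M and TAP1 in MDA-MB-231 cells and the fall of TAPBP in SKOV3 cells kept their direction and their call under all 21 alternatives. The falls of TAP2 and TAPBP in MDA-MB-231 cells lost theirs only where an absolute difference of at least 0.5 was required, which left 3 of the 8 genes in these cells in place of 5. In SKOV3 cells the count of 2 became 1 with each line fitted alone, with the replicate block, in the deposited values, with an intensity trend and robust hyperparameters, at an adjusted p under 0.01, with a difference of at least 0.5, and in 6 of the fits with 1 array left out (range 1 to 2). The count that passed with the same sign in both lines changed in the same way from 2 to 1, to 0 with a difference of at least 0.5, and ranged from 1 to 2 with arrays left out. The count whose responses differed between lines, 1, was 0 with the replicate block and at an adjusted p under 0.01, 3 with cyclic loess and with array weights, 2 with centred arrays and in the deposited values, and 0 to 1 with arrays left out. Among the 69 other genes, the count in SKOV3 cells, 17, was 11 with each line alone, 8 with the replicate block, 26 with array weights, 8 at an adjusted p under 0.01, 10 with a difference of at least 0.5, and 4 to 23 with arrays left out, the lowest without SKOV3 control replicate 2 and 7 without replicate 1. The count in both lines, 16, was 9 with each line alone, 8 with the replicate block, 8 at an adjusted p under 0.01, 10 with a difference of at least 0.5, and 4 to 20 with arrays left out. The median difference of the 8 genes in MDA-MB-231 cells, 0.25, was 0.11 with centred arrays and 0.073 in the deposited values. Where an arm was left with 1 array, it was assumed to vary like the other groups. Why these values changed was not tested, apart from the thresholds, which change them by construction.

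Signs turned only for genes that did not pass. HLA-B in SKOV3 cells was -0.036 with the replicate block and -0.076 to 0.25 with arrays left out. HLA-C was -0.014 in MDA-MB-231 and -0.011 in SKOV3 cells in the deposited values. Its difference between responses was -0.018 with cyclic loess, -0.0089 with centred arrays, -0.0037 in the deposited values and -0.018 to 0.12 with arrays left out, and its difference between controls was -0.0050 in the deposited values and -0.0039 to 0.069 with arrays left out. TAP2 in SKOV3 cells was 0.036 with cyclic loess and -0.060 to 0.011 with arrays left out. CALR in MDA-MB-231 cells was -0.043 with cyclic loess, -0.11 with centred arrays, -0.14 in the deposited values and -0.093 to 0.18 with arrays left out. MICB in SKOV3 cells was -0.090 with centred arrays and -0.13 in the deposited values.

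Whether replicate numbers pair the arrays was checked over 6853 genes by the correlation of each array's deviation from its group mean. Same-numbered arrays gave -0.12, 0.04 and 0.23 in MDA-MB-231 cells and 0.04 and -0.07 in SKOV3 cells, so the numbers were not taken as pairs. With the replicate block, TAP1 in SKOV3 cells was 0.33 (adjusted p = 0.257), its difference between lines was 0.79 (adjusted p = 0.217), that of MICB -1.09 (adjusted p = 0.0874) and that of IRF9 0.61 (adjusted p = 0.198). The difference of TAP2 between controls was 0.37 (adjusted p = 0.0893). Signals near the floor limit what could be measured for TAP2, TAPBP and HLA-C, and among the other genes for NLRC5, UGGT1 and HLA-DOB.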
